A study of Rattus norvegicus with 24 samples.

Results

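The fibrillar collagen genes Col1a1, Col1a2 and Col3a1 were followed through whole dorsal root ganglia (DRG), the clusters of sensory nerve cell bodies beside the spinal cord. They were chosen by Ensembl identifier, as 3 of the 24613 gene rows of the count matrix. The identifiers are ENSRNOG00000003897 for Col1a1, ENSRNOG00000011292 for Col1a2 and ENSRNOG00000003357 for Col3a1. The matrix pairs no identifier with a name, so the names rest on that choice.

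Adult female Sprague Dawley rats formed 5 groups, with 1 rat per sample and 24 samples in all. No SCI (n = 4) were naive rats, TX SCI (n = 4) had the cord cut through at T2, and CONT SCI (n = 6) had a contusion of 25 g-cm at T2, which spares some descending input. CONT SCI + SWIM (n = 5) and CONT SCI + SWW (n = 5) had the same contusion and then trained for 10 weeks, by swimming or by walking in shallow water. All rats, No SCI included, lived in small cages that restricted walking, and the laminectomy and the buprenorphine for pain are described for the injured rats. Tissue was taken at 8.5 weeks in TX SCI, at 11.5 weeks in No SCI and CONT SCI and at 13.5 weeks in both trained groups, so the time of collection changes with the group and cannot be told apart from it in any comparison across these times. Ganglia of T11 to L4 from both sides were pooled within each rat.

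Fibrillar collagens are secreted as procollagen chains that wind into triple helices and assemble into the tensile fibrils of connective tissue. Type I collagen is built from the chains of Col1a1 and Col1a2, while type III collagen is a homotrimer of the Col3a1 chain and often shares fibrils with type I. In peripheral ganglia and nerves these genes are known mainly from fibroblasts of the capsule and of the tissue between the fibres, with lower levels in other supporting cells. In whole tissue, fewer cells of a type and less RNA per cell cannot be told apart. Markers of fibroblasts, glia, neurons and other cell types were not analysed here, because no table at hand pairs the identifiers with names. The makeup of the ganglia could therefore not be checked beside these values.

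Col1a1 fell in 3 of 9 comparisons between groups, and Col3a1 passed edgeR's test in 0 of 9, with an unadjusted p under 0.05 in 0 of 9 and 0 of 9 called by DESeq2. The 3 falls of Col1a1 were in TX SCI against No SCI and in CONT SCI + SWIM against both CONT SCI and No SCI. The log2 fold changes were -0.52, -0.47 and -0.59. DESeq2's Wald test also called these 3, with adjusted p of 0.0234, 0.0229 and 0.00709. Calls were common in these comparisons, where 34.8%, 32.1% and 28.1% of all genes tested passed, and 17.3%, 19.6% and 16.1% passed as lower. With 1 rat left out at a time, the call on Col1a1 was lost in 6 of 8 fits for TX SCI against No SCI, in 8 of 11 for CONT SCI + SWIM against CONT SCI and in 3 of 9 for CONT SCI + SWIM against No SCI. The first 2 of these calls were also lost when libraries were scaled by their totals alone. Both genes varied more between rats of the same group than nearly all genes of similar level, and they varied together. The row given as Col1a2 was almost empty in every group.

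Col1a1 and Col3a1 were both deeply covered. The libraries held between 16086670 and 38730307 counted reads (median 29398499). They ran from 30462475 to 38370849 in CONT SCI, from 16086670 to 29709101 in CONT SCI + SWIM and from 20063150 to 29995120 in CONT SCI + SWW. Every library of the trained groups was thus shallower than every CONT SCI library, and the bearing of depth on the group differences was not tested. Col1a1 received 1728 to 7236 reads per library and Col3a1 received 3610 to 11553. Counting error alone would give a coefficient of variation of at most 2.41% for Col1a1 and 1.66% for Col3a1. Levels are given as CPM, read counts relative to library size, with the libraries scaled by the TMM method. They are compared between groups and not between genes, since gene length was not taken into account.

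The row given as Col1a2, which encodes the second chain of type I collagen, held 0 counts in 21 samples and 1 count in each of the other 3. These 3 counts among 690303296 reads have an exact 95% Poisson interval of 0.619 to 8.77 counts, which covers counting error only. Col1a1, the partner chain, received 110773 counts over the same libraries. A count of 3 in 1 library would correspond to between 0.0775 and 0.186 CPM, and every sample lay below that floor. No fold change is given for this row, and it was removed by the filter on low counts, so 2 of the 3 rows entered the tests. Of the 24613 rows, 4424 were at 0 in every sample and 1336 more held 1 to 3 counts in total. Col1a1 had at least 1728 reads in every library. The near-empty row does not show that the ganglia lack Col1a2 transcripts, and why it is empty was not tested. In RefSeq's annotation of a later assembly, GRCr8, 0 other gene models overlap Col1a2 or Col3a1, and 1 overlaps Col1a1, that of Sgca. Models of the assembly used for counting were not analysed here.

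Col1a1 encodes the more abundant chain of type I collagen. In No SCI it measured 180, 214, 166 and 213 CPM in replicates 1 to 4. In CONT SCI it ranged from 107 to 212 CPM, with a median of 196 over 6 rats. In CONT SCI + SWIM it measured 114, 107, 116, 180 and 128 CPM. The swimming group was therefore low in 4 rats, with replicate 4 inside the range of No SCI. In CONT SCI + SWW the values were 139, 193, 176, 181 and 114 CPM. In TX SCI they were 176, 146, 105 and 108 CPM. The transected group was split between replicate 1, inside the range of No SCI, and 3 rats below it.

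By mean level of Col1a1 (± SD), the order was No SCI with 193 ± 23.8 CPM (n = 4), CONT SCI with 178 ± 39.5 (n = 6), CONT SCI + SWW with 161 ± 32.8 (n = 5), TX SCI with 134 ± 34.0 (n = 4) and CONT SCI + SWIM with 129 ± 29.6 (n = 5). Each group differed from the next in this order by less than the SD of either. Across the 5 groups taken as a whole, Col1a1 passed the test for any difference (edgeR's quasi-likelihood F test, adjusted p = 0.0314). So did 60.8% of the 15247 genes tested, and Col1a1 lost this call when libraries were scaled by their totals alone (adjusted p = 0.0544).

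Col3a1 encodes the chain of type III collagen. In No SCI it measured 225, 239, 271 and 303 CPM, and in CONT SCI it ranged from 210 to 352 CPM with a median of 251. In CONT SCI + SWIM it measured 208, 223, 243, 303 and 231 CPM. In CONT SCI + SWW it measured 251, 327, 297, 283 and 189 CPM. All of these groups covered one another's ranges in large part. In TX SCI the values were 297, 229, 164 and 182 CPM, with replicates 3 and 4 below every other rat of the series. The means (± SD) were 269 ± 52.7 CPM for CONT SCI + SWW, 262 ± 49.3 for CONT SCI, 260 ± 34.5 for No SCI, 241 ± 36.7 for CONT SCI + SWIM and 218 ± 59.3 for TX SCI, with group sizes as above. Each difference between neighbours in this order was smaller than the SD of either group. Col3a1 did not pass the test across the 5 groups (edgeR, adjusted p = 0.433).

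**Figure D1:**
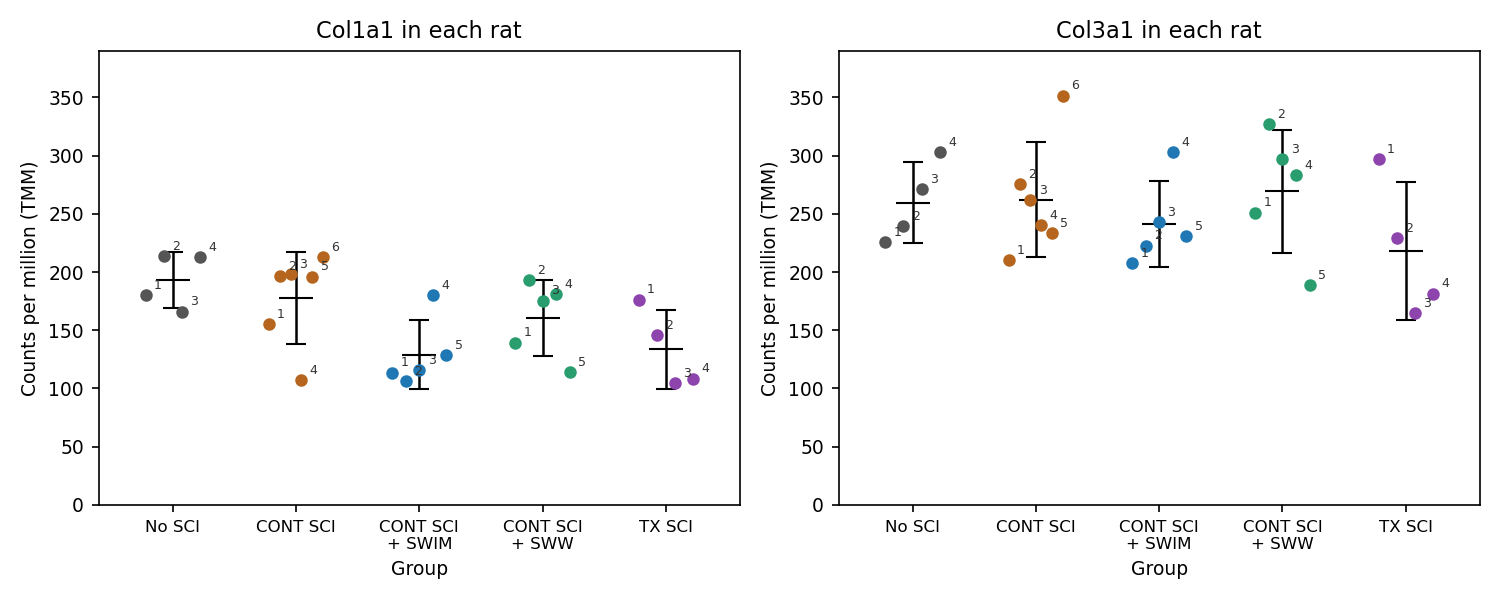
Col1a1 (left) and Col3a1 (right) in CPM in each of the 24 rats, by group. Points carry the replicate number, and bars show the mean and SD. Col1a1 is at most 128 CPM in 4 of 5 CONT SCI + SWIM rats, while Col3a1 overlaps in all groups.

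The comparison of CONT SCI with No SCI concerns ganglia below a partial injury, at the same time of collection. Since No SCI rats were naive, it takes in the contusion together with the surgery and drugs described for the injured rats. Neither tested collagen differed here, where 10.4% of 15126 genes did (1578 genes, or 1041 without No SCI replicate 2). Col1a1 had a log2 fold change of -0.13 with a 95% interval of -0.50 to 0.24 (edgeR, adjusted p = 0.775), which was -0.015 without CONT SCI replicate 4 and -0.19 without No SCI replicate 3. Col3a1 had 0.01 with an interval of -0.32 to 0.34 (edgeR, adjusted p = 0.991), and this sign turned under several alternatives, with -0.089 without CONT SCI replicate 6 and 0.088 without No SCI replicate 4. Changes of either gene within these intervals are not excluded, and larger ones could also have missed the threshold among rats that vary this much.

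TX SCI against No SCI adds the full loss of descending input and an earlier collection. Col1a1 fell by 30.4% in TX SCI, a log2 fold change of -0.52 (standard error 0.19, 95% interval -0.93 to -0.12, edgeR, adjusted p = 0.0449), and 3 of the 4 TX SCI rats lay below every No SCI rat. Of the 15126 genes tested, 34.8% passed in this comparison and 17.3% passed as lower, and the log2 fold change of Col1a1 was below that of all but 8.60% of them. Col3a1 had a log2 fold change of -0.25 (95% interval -0.61 to 0.12, edgeR, adjusted p = 0.281). The call on Col1a1 was lost without TX SCI replicate 2 (adjusted p = 0.0611), 3 (0.131) or 4 (0.121) and without No SCI replicate 1 (0.0664), 2 (0.108) or 4 (0.107). It was kept without TX SCI replicate 1 (0.0130) or No SCI replicate 3 (0.0342). With libraries scaled by their totals alone it was lost as well (log2 fold change -0.49, adjusted p = 0.0588). Col3a1 gained a call only without TX SCI replicate 1, with a log2 fold change of -0.44 (adjusted p = 0.0427), and had -0.13 without TX SCI replicate 3 (adjusted p = 0.591).

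Between the injury models, TX SCI against CONT SCI, neither tested collagen passed, while 40.4% of 15126 genes did. Col1a1 had a log2 fold change of -0.40 (standard error 0.18, 95% interval -0.77 to -0.02, edgeR, adjusted p = 0.0842), and Col3a1 had -0.25 (95% interval -0.59 to 0.08, edgeR, adjusted p = 0.210). Single rats decided this comparison. Without CONT SCI replicate 4, the rat with the lowest Col1a1 of its group, Col1a1 reached -0.51 (adjusted p = 0.00745), and without TX SCI replicate 1 it reached -0.57 (adjusted p = 0.0222). Without TX SCI replicate 3 it was -0.30 (adjusted p = 0.235). Col3a1 was -0.45 without TX SCI replicate 1 (adjusted p = 0.0256) and -0.14 without TX SCI replicate 3 (adjusted p = 0.519).

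Swimming after contusion was set against contusion alone. Col1a1 fell by 27.6% in CONT SCI + SWIM, a log2 fold change of -0.47 (standard error 0.17, 95% interval -0.81 to -0.12, edgeR, adjusted p = 0.0354). Of 15179 genes, 32.1% passed in this comparison and 19.6% passed as lower. Col3a1 had a log2 fold change of -0.12 (95% interval -0.40 to 0.16, edgeR, adjusted p = 0.526), which ranged from -0.22 without CONT SCI + SWIM replicate 4 to -0.020 without CONT SCI replicate 6. The ranges of Col1a1 overlapped, because CONT SCI replicate 4 was low and CONT SCI + SWIM replicate 4 was high. The call on Col1a1 was lost without CONT SCI + SWIM replicate 1 (adjusted p = 0.0874), 2 (0.0956), 3 (0.0791) or 5 (0.0607), and without CONT SCI replicate 2 (0.0793), 3 (0.0692), 5 (0.0691) or 6 (0.0763). It was kept without CONT SCI replicate 1 (0.0332) or 4 (0.00360) or CONT SCI + SWIM replicate 4 (0.00613). Scaling by library totals alone also ended it (log2 fold change -0.41, adjusted p = 0.0574). Against No SCI, with which this comparison shares the swimming rats, Col1a1 in CONT SCI + SWIM fell by 33.4%, a log2 fold change of -0.59 (standard error 0.18, 95% interval -0.96 to -0.21, edgeR, adjusted p = 0.0190). Of the 5 swimming rats, 4 lay below every No SCI rat, while 28.1% of genes passed and 16.1% passed as lower. This call was lost without CONT SCI + SWIM replicate 2 (adjusted p = 0.0522) or No SCI replicate 2 (0.0523) or 4 (0.0589), and kept without each of the other 6 rats. Col3a1 had a log2 fold change of -0.11 against No SCI (95% interval -0.42 to 0.20, edgeR, adjusted p = 0.629), and it ranged from -0.20 without CONT SCI + SWIM replicate 4 to -0.024 without No SCI replicate 4.

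Walking in shallow water gave no call on either collagen. Against CONT SCI, where 43.0% of 15179 genes passed, Col1a1 in CONT SCI + SWW had a log2 fold change of -0.15 (95% interval -0.49 to 0.19, edgeR, adjusted p = 0.503) and Col3a1 had 0.04 (95% interval -0.24 to 0.32, edgeR, adjusted p = 0.847). Against No SCI, where 22.9% of genes passed, Col1a1 had -0.27 (95% interval -0.64 to 0.11, edgeR, adjusted p = 0.315) and Col3a1 had 0.05 (95% interval -0.26 to 0.36, edgeR, adjusted p = 0.845). The value of Col1a1 against CONT SCI was -0.034 without CONT SCI + SWW replicate 5 and -0.26 without CONT SCI replicate 4, and against No SCI it was -0.16 without CONT SCI + SWW replicate 5. The sign of Col3a1 depended on single rats. Without CONT SCI + SWW replicate 2 it was -0.044 against CONT SCI and -0.030 against No SCI, and without CONT SCI + SWW replicate 5 it was 0.15 and 0.16. That Col1a1 passed after swimming and not after walking does not show that the training forms differ. Compared directly and at the same collection time, CONT SCI + SWIM and CONT SCI + SWW differed in Col1a1 by -0.32 on the log2 scale (95% interval -0.68 to 0.04, edgeR, adjusted p = 0.324) and in Col3a1 by -0.16 (95% interval -0.45 to 0.13, edgeR, adjusted p = 0.566). The latter was -0.26 without CONT SCI + SWIM replicate 4 and -0.078 without CONT SCI + SWW replicate 2. In that comparison 2.99% of genes passed, which is 454 genes, and this count was 123 without CONT SCI + SWIM replicate 3 and 811 without CONT SCI + SWW replicate 5.

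TX SCI was also set against the mean of both trained groups, where 21.3% of 15247 genes passed (3246 genes, or 1886 without TX SCI replicate 4). Neither tested collagen did. Col1a1 had a log2 fold change of -0.11 (95% interval -0.45 to 0.24, edgeR, adjusted p = 0.686), which ranged from -0.26 without TX SCI replicate 1 to -0.0014 without TX SCI replicate 3. Col3a1 had -0.23 (95% interval -0.53 to 0.07, edgeR, adjusted p = 0.275), which was -0.41 without TX SCI replicate 1 (adjusted p = 0.0496) and -0.11 without TX SCI replicate 3 (adjusted p = 0.667).

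**Figure D2:**
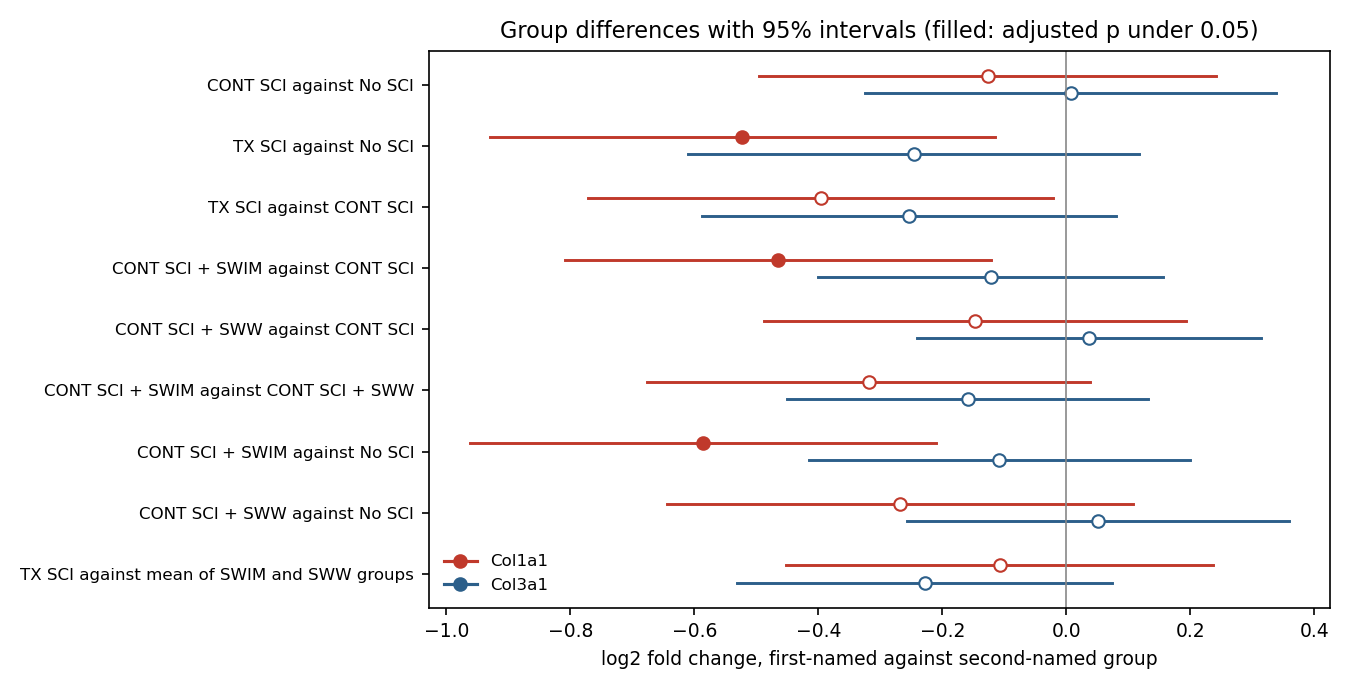
Log2 fold changes of Col1a1 and Col3a1 in the 9 comparisons, with 95% intervals. Filled points have an adjusted p under 0.05. The 3 filled points are all Col1a1, at -0.52, -0.47 and -0.59, and every interval of Col3a1 includes 0.

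The balance between both collagens can be read without scaling the libraries, as the ratio of Col3a1 to Col1a1 counts within a library. Its absolute size depends on gene length and only its change between samples is informative. The ratio was 1.25, 1.12, 1.63 and 1.42 in No SCI and ranged from 1.19 to 2.24 in CONT SCI, with a median of 1.38. It was 1.83, 2.09, 2.10, 1.68 and 1.80 in CONT SCI + SWIM. All 5 swimming rats thus lay above all 4 No SCI rats. The ratio was 1.80, 1.69, 1.69, 1.56 and 1.65 in CONT SCI + SWW, with 4 of 5 rats above No SCI, and 1.68, 1.57, 1.57 and 1.68 in TX SCI, with 2 of 4 above. These ratios are a description of the rows and were not tested. In CONT SCI + SWIM against No SCI, 28.1% of single genes passed edgeR's test. How often the ratio of 2 other genes separates these groups was not examined.

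CONT SCI replicate 4 stood high in this ratio, at 2.24, above the other 23 libraries. Its Col1a1 was the lowest of its group, at 107 CPM, while its Col3a1, at 240 CPM, lay within the group. Without this rat the CONT SCI ratios averaged 1.39 ± 0.17 (SD, n = 5), in place of 1.53 ± 0.38 (SD, n = 6). With it, 0 of the 5 swimming rats lay above all CONT SCI rats, and Dixon's test did not set it apart from its group (gap over range 0.559, critical value 0.625). The mean ratio (± SD) was 1.36 ± 0.22 over the 4 No SCI rats and 1.90 ± 0.19 over the 5 swimming rats. The ratios were closest together in TX SCI, with a mean of 1.62 ± 0.06 (SD, n = 4), and in CONT SCI + SWW, with a mean of 1.68 ± 0.09 (SD, n = 5), although the levels of both genes ranged widely among the same rats.

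**Figure D3:**
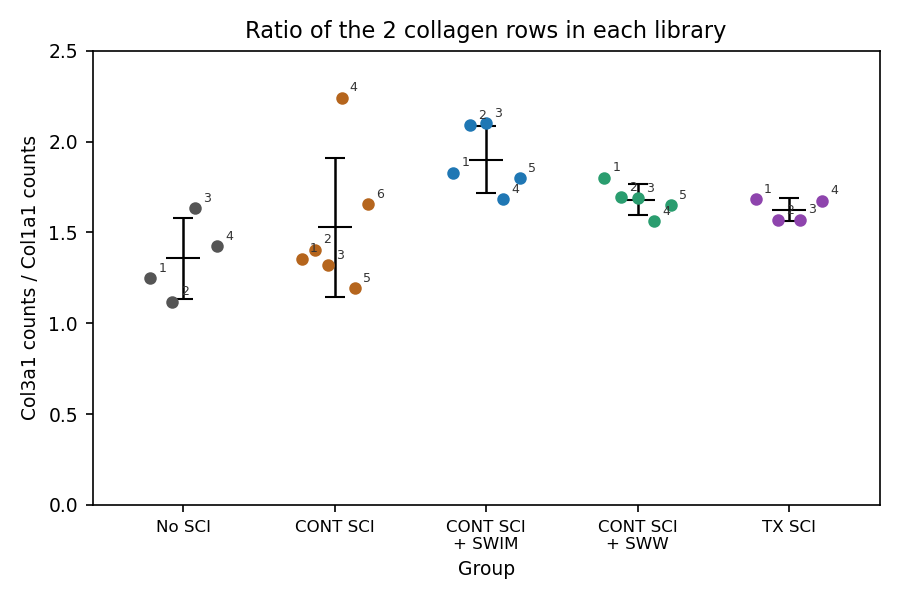
Ratio of Col3a1 to Col1a1 counts in each library, by group. Points carry the replicate number, and bars show the mean and SD. The CONT SCI + SWIM libraries sit between 1.68 and 2.10, above the No SCI libraries at 1.12 to 1.63, and CONT SCI replicate 4 is highest at 2.24.

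Within groups, both collagens varied strongly from rat to rat. The pooled SD of log2 CPM around the group means was 0.32 for Col1a1 and 0.27 for Col3a1. Genes within 0.5 log2 CPM of Col1a1 (n = 1107) had a median SD of 0.10, and 99.6% of them varied less than Col1a1. Of the genes within the same distance of Col3a1 (n = 728), 99.5% varied less. The coefficient of variation of Col1a1 was 12.3% in No SCI, 22.3% in CONT SCI, 23.0% in CONT SCI + SWIM, 20.4% in CONT SCI + SWW and 25.4% in TX SCI. For Col3a1 it was between 13.3% in No SCI and 27.2% in TX SCI. All of these are far above the counting error.

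The deviations of both genes from their group means went together. Over the 24 rats, Pearson's r was 0.769 (two-sided permutation test within groups, p = 0.00017) and Spearman's rho was 0.760 (permutation test, p = 0.0003). This was the only pair tested, since the row given as Col1a2 could not enter, so adjusted values are the same. Without CONT SCI replicate 4 and CONT SCI + SWW replicate 5, the rats farthest from the median of Col1a1, r was 0.807. In 19 of 24 rats both genes lay on the same side of their group mean. In CONT SCI + SWW replicate 5 both were low, by 0.46 and 0.49 on the log2 scale, and in TX SCI replicate 1 both were high, by 0.43 and 0.48. Both values come from the same library and share its scaling. The deviations correlated with those of the log2 total count at r = -0.07 for Col1a1 and r = -0.30 for Col3a1, as a description over the same 24 rats.

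**Figure D4:**
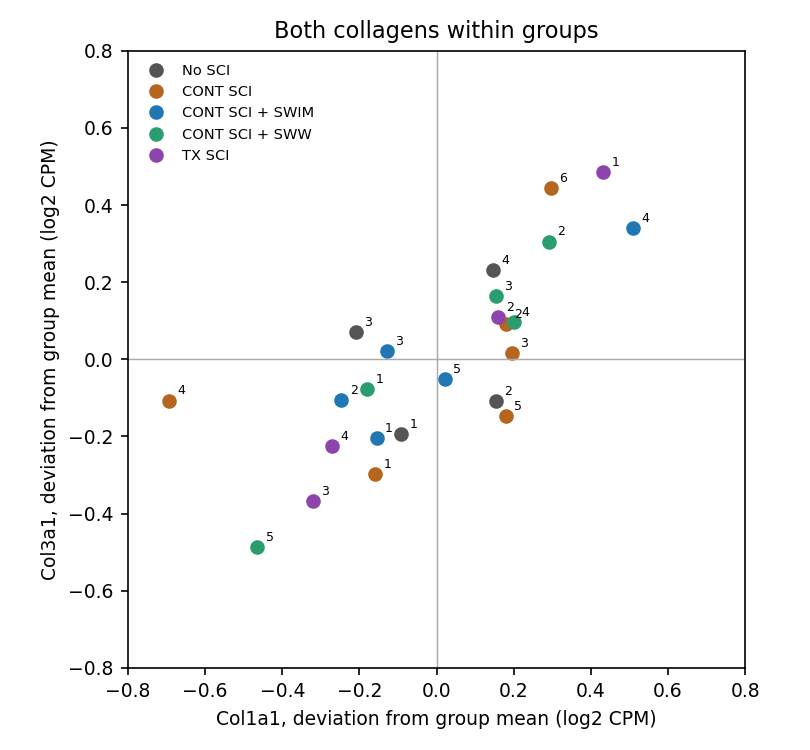
Deviation of each rat from its group mean in log2 CPM, Col1a1 on the horizontal and Col3a1 on the vertical axis. Points carry the replicate number. Most rats lie along the rising diagonal (r = 0.769, n = 24), and CONT SCI replicate 4 lies apart at -0.69 and -0.11.

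Genes whose deviations were most like the mean of Col1a1 and Col3a1 were sought among 12518 other genes whose log2 CPM averaged 1 or more. The median r with that mean was 0.02, 48 genes reached 0.8 and 2 reached 0.9. These were ENSRNOG00000013720 (r = 0.936) and ENSRNOG00000014288 (r = 0.925), over 24 rats with group means removed. Without the 2 rats farthest from the median, r was 0.920 and 0.922. Each correlated more closely with Col3a1 (0.903 and 0.898) than with Col1a1 (0.861 and 0.847). ENSRNOG00000013720 averaged (± SD) 45.7 ± 6.13 CPM for No SCI, 44.2 ± 11.1 for CONT SCI, 37.4 ± 8.998 for CONT SCI + SWIM, 41.8 ± 12.3 for CONT SCI + SWW and 27.9 ± 6.54 for TX SCI. ENSRNOG00000014288 was lowest for TX SCI, with 61.4 ± 18.97 CPM (n = 4), and highest for CONT SCI + SWW, with 89.8 ± 16.6 (n = 5). At the other end, 15 genes had an r of -0.8 or less. These genes are given by identifier, and reads shared with similar or overlapping genes could not be examined.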

How the data were processed

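Per the paper's methods, single-end reads of poly-A RNA were aligned to Rn6 with STAR, and reads per gene were counted with HTSeq 0.10.0 by strand against an Ensembl annotation from which mitochondrial genes were taken out. The authors deposited raw counts, without normalization. Read quality was checked with FastQC 0.10.1, per the submitters' processing notes. Multi-mapped reads, and reads that fall on more than 1 gene model, can be missing from such counts. All 24 columns were matched to samples by group and replicate number.

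From the counts, edgeR 4.0.16 in R 4.3.3 was run with TMM scaling, filterByExpr (minimum count 10, minimum total 15), glmQLFit and glmQLFTest. All genes of a set were fitted together: No SCI, CONT SCI and TX SCI (14 samples, 15126 genes), the groups without TX SCI (20 samples, 15179 genes), or all 24 samples (15247 genes) for the test across groups and for TX SCI against the trained groups. P-values were adjusted by the Benjamini-Hochberg method over all genes, with a threshold of 0.05. Standard errors were taken as the absolute log2 fold change over the root of the F statistic, and intervals from the t distribution with the fit's total degrees of freedom. CPM values used TMM over all 24 samples. Correlations used log2 CPM (prior count 2) less the group mean, with 100000 permutations within groups. DESeq2 1.42.0 served as an alternative. Python 3.11.15 with numpy 2.4.6 was used for the rest.

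In simulated counts, 200 genes were given a log2 change of 1. The same test recovered 85.5% of them for CONT SCI against No SCI, with 16 others called among 15003 genes. The changed genes were drawn at random, whereas both tested collagens vary more than nearly all genes of similar level and changed by less. The share recovered therefore does not tell how well a change in Col1a1 or Col3a1 would be found. The members, the gene lists and the tests were chosen with earlier results of these data known. Named genes were the 3 collagens and the 2 genes most like them. That rule averaged the 3 collagens, and Col1a2 was dropped from the average after its counts were seen. RefSeq's gene table for GRCr8 (47357 genes) pairs none of its genes with an Ensembl identifier, so the lists of matrix genes and cell type markers were not analysed here. The matrix holds separate rats, and no batch is given in the labels.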

Additional observations from a re-analysis of the deposited data

How the results depend on the processing

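Alternatives were RLE scaling, library totals without scaling, DESeq2, no filter, a wider or narrower choice of samples, a replicate block and each rat left out in turn. Of 118 results under alternatives other than leaving out a rat, 112 kept their direction and their side of the threshold. With library totals alone, Col1a1 missed the threshold in TX SCI against No SCI (log2 fold change -0.49, adjusted p = 0.0588), in CONT SCI + SWIM against CONT SCI (-0.41, adjusted p = 0.0574) and across the 5 groups (adjusted p = 0.0544), and Col3a1 in CONT SCI against No SCI turned to -0.014. No scaling moved the median of all genes by over 0.1. DESeq2's likelihood ratio test across the 5 groups was added later in place of its Wald test.

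Replicate numbers belong to different rats. Same-numbered rats of 2 groups did not deviate together, with mean r from -0.104 to 0.0476 over all genes, and at most 2 rats of a group correlated best with their own number. With the replicate block, Col1a1 in CONT SCI + SWIM against CONT SCI had a log2 fold change of -0.42 (edgeR, adjusted p = 0.0939), Col3a1 in the same comparison moved to -0.024, and Col3a1 in CONT SCI against No SCI turned to -0.084. The block changed no other call. It moved the calls over all genes from 1578 to 1100 in CONT SCI against No SCI, and from 454 to 251 in CONT SCI + SWIM against CONT SCI + SWW, where DESeq2 called 821 and leaving out a rat gave 123 to 811. Without No SCI replicate 2, 1041 genes passed in CONT SCI against No SCI, and without TX SCI replicate 4, 1886 in place of 3246 passed in TX SCI against the trained groups.

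With each rat left out in turn, the log2 fold change of Col1a1 ranged from -0.69 to -0.42 in TX SCI against No SCI (call kept in 2 of 8), from -0.62 to -0.40 in CONT SCI + SWIM against CONT SCI (3 of 11), from -0.74 to -0.53 in CONT SCI + SWIM against No SCI (6 of 9) and from -0.57 to -0.30 in TX SCI against CONT SCI (gained in 2 of 10). Col1a1 kept its negative sign in all 9 comparisons. Col3a1 ranged from -0.44 to -0.13 in TX SCI against No SCI, from -0.45 to -0.14 in TX SCI against CONT SCI and from -0.41 to -0.11 in TX SCI against the trained groups, each with 1 call gained. It turned sign in CONT SCI against No SCI (-0.089 to 0.088), CONT SCI + SWW against CONT SCI (-0.044 to 0.154) and CONT SCI + SWW against No SCI (-0.030 to 0.164). The cause of these changes was not tested. Each such fit also holds fewer rats. The counting error of Col1a1 and Col3a1 is far below the spread between rats. Dixon's test on 15 sets of group values set no rat apart, where chance gives about 0.75.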
